A study of Mus musculus with 4 samples.

Results

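The amino acid stress genes led by Asns are 10 genes of amino acid synthesis, transport and stress: Asns, Slc7a5, Slc7a11, Slc3a2, Psat1, Phgdh, Trib3, Ddit3, Chac1 and Atf4. They were taken by symbol and matched 11 of 55471 gene identifiers, because Ddit3 has 2 overlapping identifiers. The set was chosen with the difference between mutant and wild type mesenchymal cells of these same libraries known, so that difference is given below as values with no test. Single cells of the mouse lung at stage E18.5 were measured in 2 Dnmt1 CKO libraries and 2 wild type libraries by droplet 3′ sequencing, with unique molecular identifiers (UMIs) counted per gene and cell. The Dnmt1 CKO lungs carry Tbx4-rtTA, a reverse tetracycline transactivator under Tbx4, which is active in lung mesenchyme, with Tet-O-Cre, a Cre gene that responds to it, and Dnmt1-D/D, deleted alleles of the maintenance DNA methyltransferase. The controls are labelled only wild type, so whether they carried any of these alleles or an inducer is not known. All lungs were digested with collagenase, DNase and dispase and treated with red cell lysis buffer. Whether the libraries come from separate animals is not stated, so p-values measure only the spread between libraries, which may be technical.

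In mammalian cells a shortage of amino acids activates the kinase GCN2, and misfolded protein in the endoplasmic reticulum (ER) activates PERK. Both phosphorylate eIF2alpha, which slows translation in general but favours that of the transcription factor ATF4. ATF4 raises genes for amino acid synthesis, uptake and tRNA charging and, when stress lasts, genes that limit survival such as Ddit3 and Chac1. Since ATF4 is controlled largely at translation, its transcript level is an incomplete measure of its activity.

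Promoter sequences are shown because ATF4 with a C/EBP partner binds composite sites that can hold the letters TGATGNAA. RefSeq promoter windows of GRCm38.p6, which run from 250 bases before to 50 bases after a gene's start, were at hand for 9 of the 10 genes, and Slc7a5 is named only. The letters were searched on both strands, and no 2 matches in a member's window overlapped. They occurred in 3.97% of 32851 windows of 300 bases and in the windows of 4 members, Asns, Slc7a11, Trib3 and Chac1. The whole window is given for Asns (chr6:7693160-7693459, minus strand), and excerpts for Slc7a11 (chr3:50443627-50443705, minus strand), Trib3 (chr2:152344013-152344072, minus strand) and Chac1 (chr2:119351023-119351082, plus strand). Sequences run 5′ to 3′ on the gene's strand, and capitals mark the matches.
Asns: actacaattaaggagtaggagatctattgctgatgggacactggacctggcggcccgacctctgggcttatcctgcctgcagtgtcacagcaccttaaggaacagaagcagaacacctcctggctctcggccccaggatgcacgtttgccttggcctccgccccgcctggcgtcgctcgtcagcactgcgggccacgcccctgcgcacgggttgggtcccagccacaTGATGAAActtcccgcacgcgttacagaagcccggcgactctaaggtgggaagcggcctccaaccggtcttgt
Slc7a11: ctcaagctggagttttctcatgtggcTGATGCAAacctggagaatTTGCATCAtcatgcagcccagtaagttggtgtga
Trib3: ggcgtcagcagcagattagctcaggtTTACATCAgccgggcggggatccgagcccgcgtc
Chac1: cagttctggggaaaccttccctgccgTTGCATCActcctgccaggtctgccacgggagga
The match in Asns begins 23 bases before the RefSeq start. Slc7a11 held 2 matches on opposite strands, and 0.07% of all windows held 2 or more. CpG dinucleotides, the letters that Dnmt1 keeps methylated, numbered 20 in the Asns window, 21 in that of Trib3, 17 in that of Chac1 and 4 in that of Slc7a11, against a median of 7 over all windows. Methylation was not measured, and a match of letters is a description only.

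The libraries held 49582593 and 54334468 UMIs in Dnmt1 CKO replicates 1 and 2 and 48213065 and 56760219 UMIs in wild type replicates 1 and 2. After filtering, 4323 and 5675 Dnmt1 CKO cells and 5111 and 4932 wild type cells were clustered, with the 10 genes and the listed pathway genes kept out of the variable genes. Pairs of libraries shared 8 to 16 barcodes. In mesenchymal-like cells Dnmt1 had 9.77 and 12.7 CPM (counts scaled to the library's sum over the class) in Dnmt1 CKO against 27.5 and 26 CPM in wild type, and the germline gene Dazl had 499 and 537 CPM in Dnmt1 CKO against 0.0577 and 0.0986 CPM in wild type. The 8 mesenchymal markers summed to 9721 and 10464 CPM there in Dnmt1 CKO and to 10983 and 13362 CPM in wild type.

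Asns, asparagine synthetase, makes asparagine from aspartate and glutamine. The gene lies at chr6:7675169-7693254 on the minus strand of GRCm38.p6. In mesenchymal-like cells it had 12 and 18.4 CPM in Dnmt1 CKO replicates 1 and 2, against 1.21 and 0.542 CPM in wild type replicates 1 and 2. Both mutant libraries stood above both wild type libraries, with 240 and 314 UMIs in Dnmt1 CKO and 21 and 11 UMIs in wild type. Means were 15.2 ± 4.53 CPM in Dnmt1 CKO and 0.877 ± 0.474 CPM in wild type (SD, n = 2 each), and the fitted log2 fold change was 3.96 (SE 0.41). Without wild type replicate 1 it was 4.6, and without wild type replicate 2 it was 3.47. In bulk sums of this kind, more cells with the transcript and more transcript per cell cannot be told apart, so cells are counted further on.

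The serine synthesis enzymes were also higher in both mutant libraries. Phgdh, the first enzyme of that route, had 11.7 and 12 CPM in Dnmt1 CKO and 5.31 and 2.32 CPM in wild type (log2 1.59, SE 0.37). Psat1, the aminotransferase that follows it, had 16.5 and 12.2 CPM in Dnmt1 CKO and 7.22 and 4.98 CPM in wild type (log2 1.20, SE 0.28). The groups did not overlap for either enzyme. The pseudogene Phgdh-ps1 took 0 and 0 UMIs in the whole Dnmt1 CKO libraries and 1 and 5 UMIs in the wild type ones.

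The transporters differed among themselves. Slc7a5, the light chain LAT1 that carries large neutral amino acids, had 15.3 and 15.3 CPM in Dnmt1 CKO and 2.48 and 1.87 CPM in wild type (log2 2.74, SE 0.27). Slc3a2, the heavy chain CD98 with which Slc7a5 and Slc7a11 each pair, had 147 and 151 CPM in Dnmt1 CKO and 137 and 147 CPM in wild type (log2 0.05, SE 0.17). Its groups overlapped, since Dnmt1 CKO replicate 1 lay just under wild type replicate 2. Slc7a11, the cystine and glutamate exchanger, had only 6 and 16 UMIs in Dnmt1 CKO and 1 and 3 UMIs in wild type, and it did not pass the filter on low counts. These are 0.301 and 0.939 CPM in Dnmt1 CKO and 0.0577 and 0.148 CPM in wild type.

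The stress regulators ranged from rare to abundant. Trib3, a pseudokinase that restrains ATF4, had 1.35 and 3.11 CPM in Dnmt1 CKO and 0.0577 and 0.345 CPM in wild type (log2 2.88, SE 0.61). Chac1, which degrades glutathione, had 19 and 12 UMIs in Dnmt1 CKO and 0 and 4 UMIs in wild type (log2 2.15, SE 0.62). Both stood higher in each mutant library on few counts, 27 and 53 UMIs for Trib3 in Dnmt1 CKO. Ddit3, the factor CHOP, had 98.2 and 138 CPM in Dnmt1 CKO and 59.9 and 70.2 CPM in wild type (log2 0.85, SE 0.21). Its second identifier had 0 UMIs in every library, and Ddit3 also overlaps the end of Mars1, so its level is uncertain. Atf4 itself had 244 and 318 CPM in Dnmt1 CKO and 196 and 221 CPM in wild type (log2 0.42, SE 0.20), the smallest difference among the fitted members except that of Slc3a2.

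In all, 9 of the 10 genes had both Dnmt1 CKO libraries above both wild type libraries, 8 of them among the 9 that passed the filter. That pattern was found for 31.3% of the 16153 genes fitted. The median log2 fold change was 1.59 over the 9 filtered members and 0.00 over all genes. Because the set was chosen from this contrast, nothing is read from these counts. Endothelial markers (8 genes) summed in these cells to 28.2 and 59.4 CPM in Dnmt1 CKO and 36.8 and 41.3 CPM in wild type, against at least 6158 CPM in endothelial-like cells, and epithelial markers (8 genes) to 31.3 and 75.4 CPM in Dnmt1 CKO and 34.4 and 30.2 CPM in wild type. Immune markers (7 genes, 6 of them higher in both mutant libraries) summed to 23.9 and 31.3 CPM in Dnmt1 CKO and 13.9 and 13.9 CPM in wild type. Cycling markers were higher in both mutant libraries for 10 of 10 genes, with sums of 660 and 499 CPM in Dnmt1 CKO and 336 and 241 CPM in wild type. With the cycling clusters left out, the log2 fold change of Asns was 3.81.

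**Figure D1:**
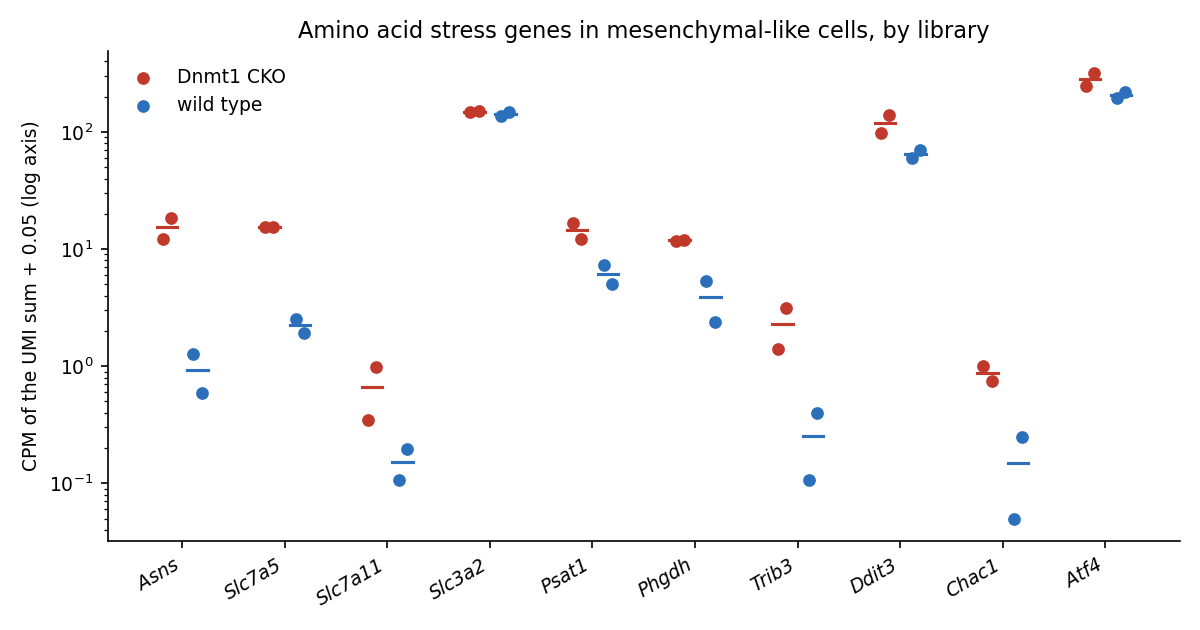
Level of each gene in mesenchymal-like cells (CPM plus 0.05, log axis), with 1 point for each library, a bar at the mean, and Dnmt1 CKO (red) left of wild type (blue). Asns lies at 12 and 18.4 CPM in Dnmt1 CKO and at 1.21 and 0.542 CPM in wild type, whereas Slc3a2 lies between 137 and 151 CPM in all 4 libraries.

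Mutant mesenchyme formed clusters of its own, and Asns differed between them. Cluster 1, which reached no subtype name, held 1124 and 1084 Dnmt1 CKO cells and 1 and 1 wild type cells, and its mutant cells had 13.9 and 26.5 CPM of Asns. Cluster 7, also without a subtype name, held 484 and 361 Dnmt1 CKO cells and 23 and 29 wild type cells, with 3.26 and 14.6 CPM in Dnmt1 CKO against 5.87 and 0 CPM in wild type. The cycling mesenchymal-like cells had 22.3 and 33.9 CPM in Dnmt1 CKO and 1.08 and 0 CPM in wild type, and the pericyte-like cells had 39.2 and 15.6 CPM in Dnmt1 CKO and 3.39 and 1.58 CPM in wild type. Cluster 11, named smooth muscle-like, had 11.7 and 23.3 CPM in 331 and 271 Dnmt1 CKO cells and 10.2 and 0 CPM in 14 and 29 wild type cells, though 477 of its Dnmt1 CKO cells were nearest to wild type alveolar myofibroblast-like cells. Cluster 21, also smooth muscle-like, had 13.3 and 11 CPM in 32 and 47 Dnmt1 CKO cells and 3.1 and 4.48 CPM in 50 and 46 wild type cells. Its values rest on 3 and 3 Asns UMIs in Dnmt1 CKO and 1 and 2 in wild type. Of the mesenchymal-like clusters, Asns was thus above 10 CPM in both mutant libraries in clusters 1, 11 and 21 and in the pericyte-like and cycling ones.

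Mutant cells that stayed in clusters with wild type matrix fibroblast-like cells had little Asns. Cluster 2 had 0 and 1.90 CPM in 120 and 364 Dnmt1 CKO cells, against 0.230 and 0.237 CPM in 698 and 521 wild type cells. Those same mutant cells also differed from those of cluster 1 in Dnmt1 and Dazl. Dnmt1 stood at 31.5 and 22.4 CPM in the Dnmt1 CKO cells of cluster 2, against 5.06 and 3.94 CPM in the Dnmt1 CKO cells of cluster 1, and Dazl at 54.5 and 10.5 CPM in the Dnmt1 CKO cells of cluster 2, against 623 and 819 CPM in those of cluster 1. Among Dnmt1 CKO cells of the other clusters with Asns above 10 CPM, Dnmt1 varied. It was 20.3 and 28.0 CPM in the pericyte-like cluster and 26.6 and 47.5 CPM in cluster 21. In the cycling cluster it was 24.7 and 41.0 CPM, and in cluster 11 it was 2.84 and 3.24 CPM. Wild type cells of these clusters, in the same order, had Dnmt1 at 33.1 and 26.9, 37.2 and 24.6, 110 and 125, and 0 and 15.1 CPM. In wild type cells of cluster 2 it was 28.0 and 31.5 CPM. Dazl in the Dnmt1 CKO cells, in the same order of clusters, stood at 396 and 193, 182 and 179, 503 and 470, and 562 and 737 CPM. The part that cells with undeleted Dnmt1 play in the low Asns of cluster 2 was not tested.

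To set subtypes side by side, each mesenchymal-like cell was also given the subtype of its nearest wild type cells. The matrix fibroblast-like group took in 2104 Dnmt1 CKO cells of cluster 1, 669 of cluster 7 and 481 of cluster 2. It had 10.6 and 18.8 CPM of Asns in Dnmt1 CKO and 0.414 and 0.357 CPM in wild type, from 129 and 205 UMIs in Dnmt1 CKO and 5 and 5 UMIs in wild type. Slc7a5 followed at 12.8 and 13.8 CPM in Dnmt1 CKO and 1.57 and 1.36 CPM in wild type, and Phgdh at 5.52 and 7.42 CPM in Dnmt1 CKO and 0.497 and 0.286 CPM in wild type. In these cells the groups lay apart for all members except Slc3a2. Nothing is read from that, since the set was chosen from this contrast and no share over all genes was taken for this group.

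The other subtypes ranged widely. Alveolar myofibroblast-like cells had 12.2 and 15.1 CPM of Asns in Dnmt1 CKO and 3.15 and 0 CPM in wild type, and adventitial fibroblast-like cells had 4.56 and 10.8 CPM in Dnmt1 CKO and 2.89 and 1.41 CPM in wild type. Pericyte-like cells had 32.5 and 15.5 CPM in Dnmt1 CKO and 3.37 and 1.59 CPM in wild type, with Phgdh at 27.4 and 17.2 CPM in Dnmt1 CKO and 1.69 and 0.795 CPM in wild type. Cycling cells had 54 and 48 UMIs of Asns in Dnmt1 CKO and 0 and 0 UMIs in wild type. In alveolar myofibroblast-like, matrix fibroblast-like and smooth muscle-like cells the values depended on how the cells were assigned. By clusters, the alveolar myofibroblast-like groups overlapped for Asns, at 4.33 and 1.81 CPM in Dnmt1 CKO and 3.14 and 0.455 CPM in wild type. The mutant values there rest on 1 and 1 UMIs. Matrix fibroblast-like cells by clusters had little Asns in Dnmt1 CKO, at 0 and 0 CPM in cluster 0 and 0 and 1.90 CPM in cluster 2. In smooth muscle-like cells the Asns groups overlapped by nearest wild type cells, on 2 or 3 UMIs a library. They stood at 7.65 and 6.99 CPM in Dnmt1 CKO and 7.06 and 2.91 CPM in wild type. By clusters they lay apart, at 11.9 and 21.4 CPM in Dnmt1 CKO and 4.76 and 2.81 CPM in wild type. Slc7a5 also overlapped by nearest wild type cells, on few UMIs and with the mutant mean lower, at 7.65 and 2.33 CPM in Dnmt1 CKO and 9.42 and 7.27 CPM in wild type. By clusters it was higher in both mutant libraries, at 12.6 and 17.6 CPM in Dnmt1 CKO and 7.13 and 7.04 CPM in wild type. No test of the difference between subtypes was made.

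**Figure D2:**
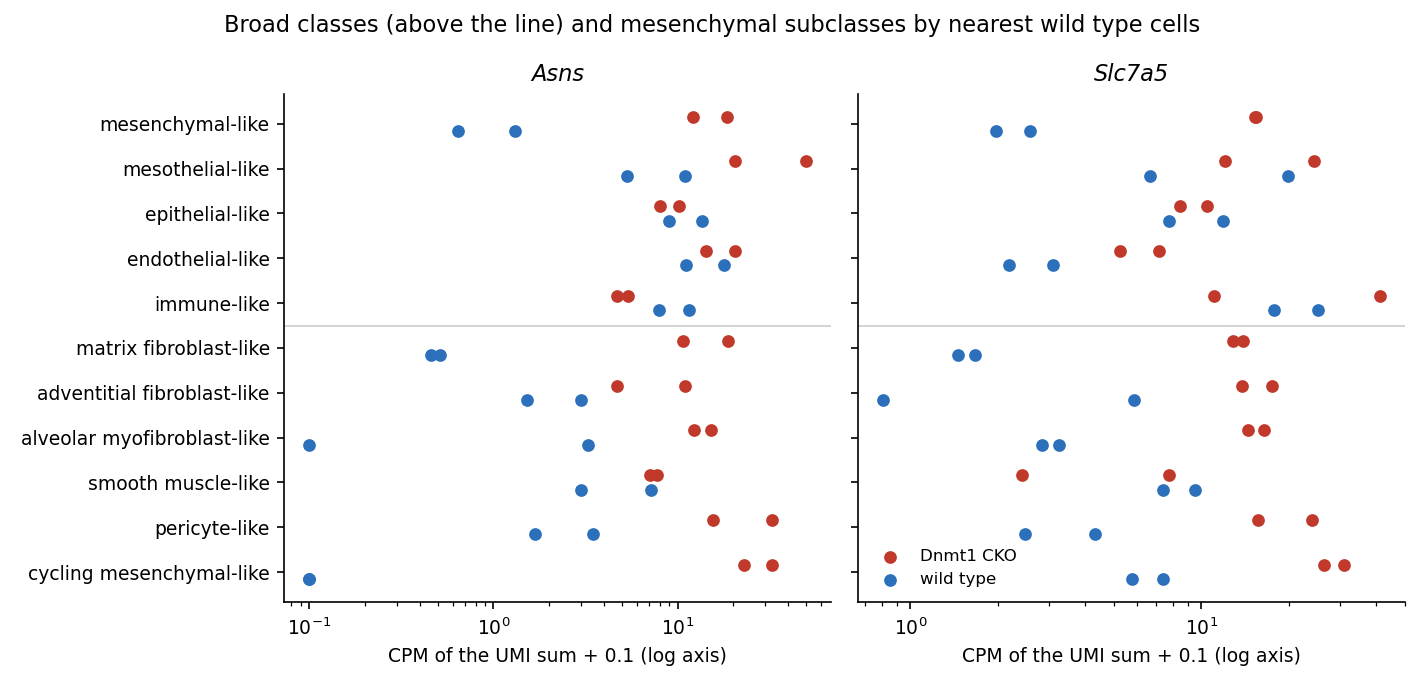
Levels of Asns and Slc7a5 (CPM plus 0.1, log axis) in 5 classes and, under the line, 6 mesenchymal subtypes assigned by nearest wild type cells, with 1 point for each library and Dnmt1 CKO (red) drawn above wild type (blue). In matrix fibroblast-like cells Asns lies at 10.6 and 18.8 CPM in Dnmt1 CKO and at 0.414 and 0.357 CPM in wild type.

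Asns was detected in a small share of mutant cells, and a cell with no UMI may still express it at this depth. An Asns UMI was found in 132 of 2568 (5.14%, exact 95% interval 4.32 to 6.07%) and 169 of 2794 (6.05%, 5.19 to 7%) Dnmt1 CKO mesenchymal-like cells, against 21 of 2816 (0.746%, 0.462 to 1.14%) and 11 of 2565 (0.429%, 0.214 to 0.766%) wild type ones. The intervals cover counting error only. Median depths were 7244.5 and 5813 UMIs in Dnmt1 CKO and 5945.5 and 7657 UMIs in wild type, and after thinning each cell to 3000 UMIs the shares were 2.29% and 3.11% in Dnmt1 CKO and 0.336% and 0.141% in wild type. Cells under that depth were left out, which kept 2424 and 2492 Dnmt1 CKO cells and 2627 and 2414 wild type cells. The wild type cells of cluster 2, with the lowest level of Asns, had it in 0.143% and 0.192% of cells at medians of 6228 and 8267 UMIs.

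Cells with 3 or more Asns UMIs numbered 22 and 28 in Dnmt1 CKO and 0 and 0 in wild type, where a count of 0 allows shares of up to 0.107% and 0.117%. These cells held 46.2% and 46.5% of all Asns UMIs of the Dnmt1 CKO mesenchymal-like cells. The highest counts in a cell were 14 and 17 UMIs in Dnmt1 CKO and 1 and 1 in wild type.

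Within the mutant mesenchyme, the other 9 genes were compared between cells with and without an Asns UMI, summed per library with the library as a block (edgeR quasi-likelihood F-test, Benjamini-Hochberg adjusted over 14439 genes). This comparison was added after values had been seen, and it uses none of the wild type cells. All 9 were higher in cells with an Asns UMI, where 8.15% of genes were called higher and 6.65% lower. Phgdh had 74.3 and 69.8 CPM in cells with an Asns UMI and 6.76 and 6.26 CPM in cells without, in Dnmt1 CKO replicates 1 and 2, a log2 difference of 3.40 (SE 0.18, adjusted p = 1.54e-07). It had the smallest p of all genes. Slc7a5 had 58.6 and 64.0 CPM in cells with an Asns UMI and 11.9 and 10.5 CPM in cells without (log2 2.41, SE 0.18, adjusted p = 3.07e-06).

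Of the rarer genes, Trib3 had 13.6 and 26.8 CPM in cells with an Asns UMI and 0.379 and 0.774 CPM in cells without (log2 4.65, adjusted p = 6.14e-06), and Chac1 had 7.50 and 4.57 CPM in cells with an Asns UMI and 0.433 and 0.323 CPM in cells without (log2 3.37, adjusted p = 0.000488). Psat1 had 51.8 and 39.8 CPM in cells with an Asns UMI and 13.7 and 9.48 CPM in cells without (log2 1.94, adjusted p = 1.99e-05). The abundant genes differed less, with log2 differences of 0.76 for Slc3a2, 0.41 for Atf4 and 0.38 for Ddit3 (adjusted p = 0.000109, 0.00405 and 0.0213). Slc7a11 had 2.73 and 3.26 CPM in cells with an Asns UMI, from 4 and 5 UMIs, and 0.108 and 0.71 CPM in cells without, from 2 and 11 UMIs (log2 2.37, adjusted p = 0.0256). DESeq2 called 5 of the 9, and the fit with no library block called 2, Phgdh and Slc7a5.

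Cells with an Asns UMI were deeper, with medians of 10280 and 8276 UMIs against 7164 and 5704 UMIs in cells without. Among cells of 5000 to 10000 UMIs the log2 differences were 3.36 for Phgdh, 2.72 for Slc7a5, 3.61 for Trib3 and 1.23 for Psat1, the last with an adjusted p of 0.051. Within cluster 1 alone Ddit3 was not called, with an adjusted p of 0.0542. Cycling markers summed to 944 and 788 CPM in cells with an Asns UMI and 638 and 470 CPM in cells without, with 9 of 10 called higher, and mesenchymal markers to 5689 and 7255 CPM in cells with an Asns UMI and 10041 and 10781 CPM in cells without, with 6 of 8 called lower. With the cycling cluster left out, the log2 difference was 3.26 for Phgdh and 2.40 for Slc7a5. Endothelial markers summed to 27.9 and 69.2 CPM in cells with an Asns UMI and 28.2 and 58.4 CPM in cells without, and immune markers to 23.2 and 25.5 CPM in cells with an Asns UMI and 23.9 and 31.9 CPM in cells without.

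**Figure D3:**
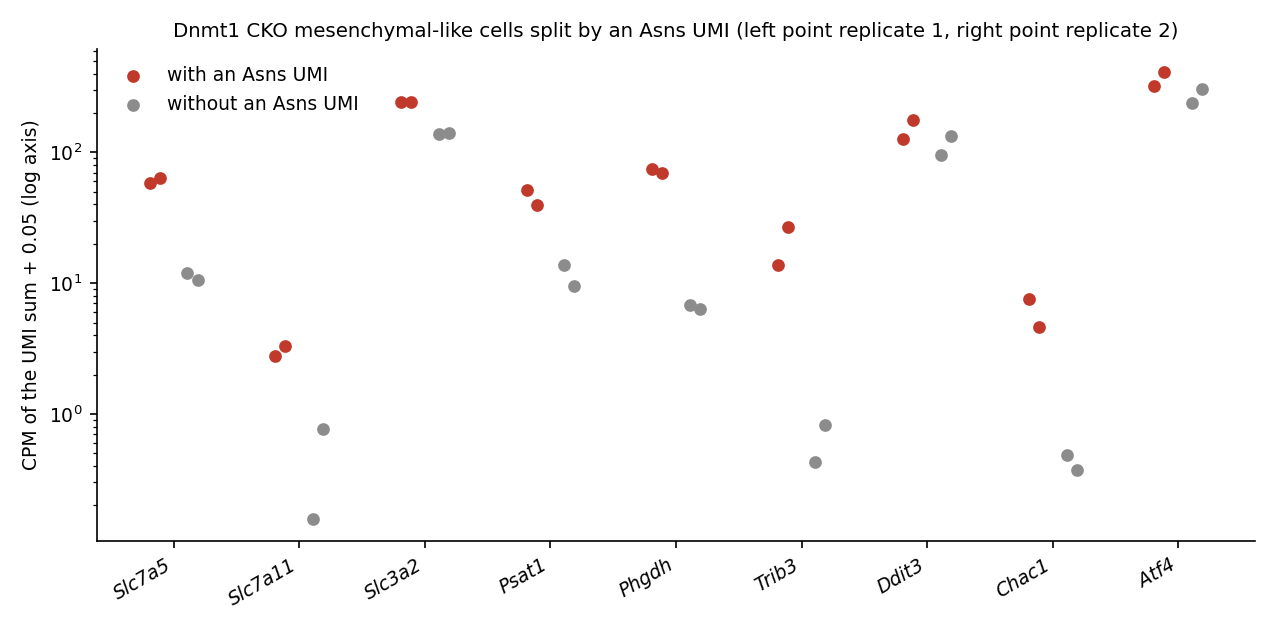
Levels of the other 9 genes (CPM plus 0.05, log axis) in Dnmt1 CKO mesenchymal-like cells with an Asns UMI (red) and, to their right, in cells without (grey), with 1 point for each library. Phgdh lies at 74.3 and 69.8 CPM in cells with an Asns UMI and at 6.76 and 6.26 CPM in cells without.

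Outside the mutant mesenchyme the split differed between genes. Among wild type mesenchymal-like cells, 21 and 11 had an Asns UMI in replicates 1 and 2. Phgdh had 133 and 16.02 CPM in these cells, from 27 and 2 UMIs, and 3.8 and 2.23 CPM in those without. Slc7a5 had 4.94 and 0 CPM with an Asns UMI, from 1 and 0 UMIs, and 2.45 and 1.88 CPM without. Trib3 had 0 and 0 UMIs in the wild type cells with an Asns UMI. In immune-like cells, Phgdh had 159 and 46.5 CPM in Dnmt1 CKO cells with an Asns UMI and 56.9 and 15.1 CPM in those without, and 121 and 199 CPM in wild type cells with an Asns UMI and 36.9 and 48.6 CPM in those without. In epithelial-like cells, Slc7a5 had 10.7 and 5.88 CPM in Dnmt1 CKO cells with an Asns UMI and 10.2 and 9.03 CPM in those without, and 12.3 and 6.94 CPM in wild type cells with an Asns UMI and 11.4 and 8.03 CPM in those without. Slc7a5 in immune-like cells had 82.0 and 29.4 CPM in Dnmt1 CKO cells with an Asns UMI and 39.0 and 9.82 CPM in those without. In wild type these were 32.4 and 41.4 CPM with and 24.3 and 16.3 CPM without. Phgdh in epithelial-like cells had 20.8 and 10.6 CPM with and 15.5 and 7.41 CPM without in Dnmt1 CKO. In wild type it had 11.4 and 11.3 CPM with and 6.18 and 3.88 CPM without. These splits were not tested.

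Dazl, a gene silenced by DNA methylation in somatic cells, was used as a second way of dividing the mutant mesenchyme, with the library as a block. Dnmt1 was lower in Dazl-positive cells, at 5.97 and 5.64 CPM against 16.2 and 21.1 CPM in Dazl-negative cells (log2 -1.68, edgeR adjusted p = 0.000164). Of the 9 members tested, Slc7a5 alone was called higher, at 17.4 and 19.4 CPM in Dazl-positive cells and 11.8 and 10.4 CPM in Dazl-negative cells (log2 0.67, SE 0.17, adjusted p = 0.0219), and none was called lower. Over all genes 4.43% were called higher and 5.5% lower. The call of Slc7a5 was lost in 7 of the alternative settings, DESeq2 and RLE scaling among them. Asns had 11.4 and 25.4 CPM in Dazl-positive cells and 13.1 and 10.2 CPM in Dazl-negative cells (log2 0.52, SE 0.26, adjusted p = 0.24), and its order differed between the libraries. In the split by Asns, Dazl had 444 and 679 CPM in cells with an Asns UMI and 503 and 523 CPM in cells without (adjusted p = 0.683).

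In the other classes no member was called between genotypes by edgeR or by DESeq2. In epithelial-like cells 9 members were tested and 1 had an unadjusted p under 0.05, in the endothelial-like class 3 of 8, among immune-like cells 2 of 8 and in mesothelial-like cells 1 of 7. Over all genes the same threshold took in 473 of 15318, 504 of 12688, 620 of 12250 and 924 of 8731 genes in that order of classes. Over all genes, edgeR called 0% in epithelial-like, 0.0158% in endothelial-like, 0.00816% in immune-like and 0.722% in mesothelial-like cells. In the subtypes the called shares of all genes were 0.158% in alveolar type 1-like and 0.0297% in general capillary-like cells and 0% in alveolar type 2-like, Car4-positive capillary-like, arterial-like, lymphatic-like and cycling endothelial-like cells. No member was called by edgeR in those subtypes, where DESeq2 was not run. An unadjusted p under 0.05 was found for 1 of 6 members tested in alveolar type 1-like cells. In alveolar type 2-like cells it was found for 1 of 8, and in general capillary-like cells for 1 of 6. Over all genes that threshold took in 608 of 10139, 558 of 10265 and 397 of 10115 genes in the same order.

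Single values in these classes went both ways. In mesothelial-like cells Asns had 20.4 and 49.7 CPM in Dnmt1 CKO and 10.8 and 5.24 CPM in wild type (log2 1.88, SE 0.50, adjusted p = 0.18). Without Dnmt1 CKO replicate 1 it was called, in a fit where the lone mutant library is assumed to vary like the 2 wild type ones. Dnmt1 in those cells had 9.60 and 18.3 CPM in Dnmt1 CKO and 52.2 and 48.5 CPM in wild type (adjusted p = 0.0649), and Dazl had 54.0 and 135 CPM in Dnmt1 CKO and 0 and 0 CPM in wild type (adjusted p = 0.0053). In epithelial-like cells, by comparison, Dnmt1 had 23.3 and 15.3 CPM in Dnmt1 CKO and 19.1 and 18 CPM in wild type, and Dazl had 4.13 and 7.72 CPM in Dnmt1 CKO and 0.0717 and 0 CPM in wild type.

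In immune-like cells Slc7a11 had 28.8 and 32.7 CPM in Dnmt1 CKO and 86.6 and 57.2 CPM in wild type (log2 -1.16, SE 0.27, adjusted p = 0.654). Some members were called there with either Dnmt1 CKO library left out, with Slc7a11 lower in Dnmt1 CKO in both fits. Again the spread was taken from the 2 wild type libraries alone, and the share of all genes called in those fits is not given here. The makeup of the class also differed, and its part in the result was not tested. Neutrophil-like cells, where Slc7a11 was highest, numbered 28 and 20 in Dnmt1 CKO and 51 and 36 in wild type, and they held 34 and 20 of its UMIs in Dnmt1 CKO and 119 and 161 in wild type. Macrophage-like cells, with 22 and 74 UMIs of Slc7a11 in Dnmt1 CKO and 19 and 9 in wild type, numbered 268 and 419 in Dnmt1 CKO and 132 and 146 in wild type. In endothelial-like cells Slc7a5 had 7.04 and 5.17 CPM in Dnmt1 CKO and 3.0 and 2.08 CPM in wild type (log2 1.17, SE 0.43, adjusted p = 1.00). Asns in the same cells had 14.1 and 20.5 CPM in Dnmt1 CKO and 17.7 and 11 CPM in wild type, so that both wild type values lay above those of wild type mesenchymal-like cells. In epithelial-like cells Asns had 10.1 and 7.93 CPM in Dnmt1 CKO and 13.4 and 8.92 CPM in wild type.

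**Figure D4:**
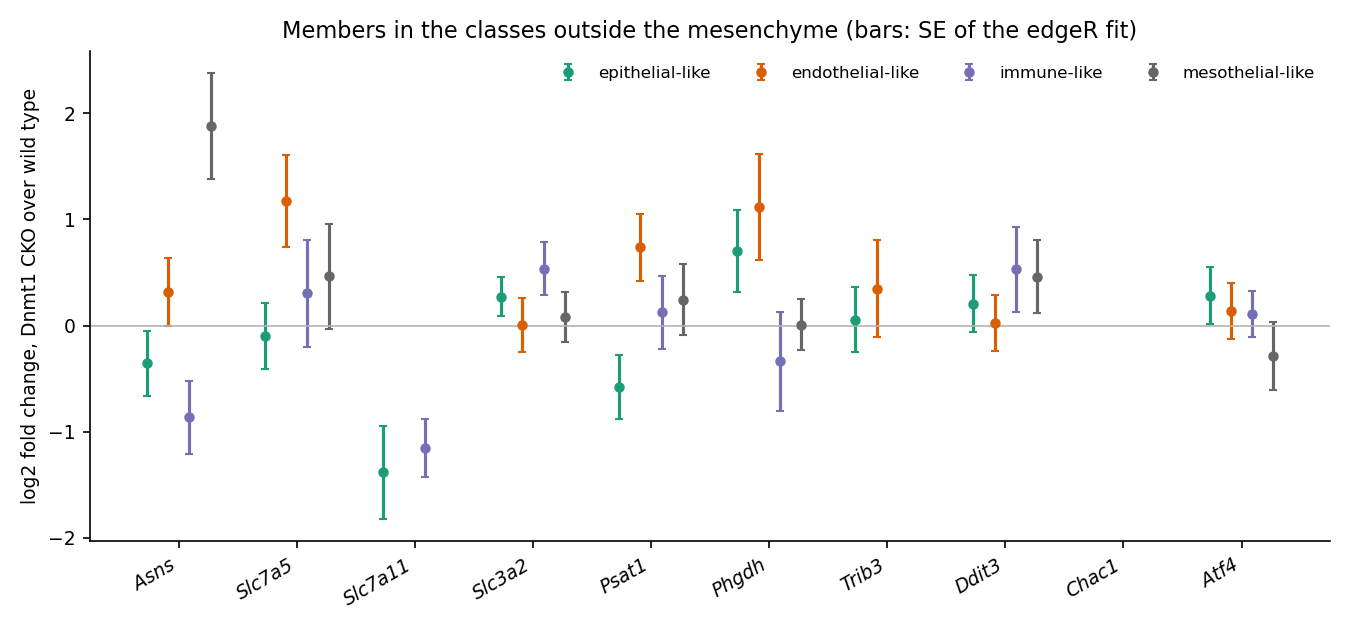
Log2 fold changes of the members, Dnmt1 CKO over wild type, in 4 classes outside the mesenchyme, with 1 colour for each class and bars for the SE of the edgeR fit. Members that did not pass the low-count filter in a class have no point, and Asns in mesothelial-like cells lies at 1.88.

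Across the 23 clusters with at least 20 cells in every library, ranked by the mean over all libraries of both genotypes, the genes peaked in different places. Asns was highest there in the mesothelial-like cluster, at 20.4 and 49.7 CPM in Dnmt1 CKO and 10.8 and 5.24 CPM in wild type. Next was the Car4-positive capillary-like cluster, at 39.7 and 17.8 CPM in Dnmt1 CKO and 10.3 and 13.7 CPM in wild type. The latter rests on 6 and 7 UMIs in Dnmt1 CKO and 5 and 9 in wild type, and these neighbours in the order overlapped. In wild type alone, several clusters stood above the mesothelial-like one. Among them were general capillary-like cells at 18.7 and 11.6 CPM and cycling immune-like cells at 22.9 and 15.9 CPM. Neutrophil-like cells had 17.5 and 20.4 CPM in wild type, on 2 and 2 UMIs. Slc7a11 stood out in neutrophil-like cells, at 509 and 476 CPM in Dnmt1 CKO and 1043 and 1643 CPM in wild type, followed by monocyte-like cells at 229 and 76.9 CPM in Dnmt1 CKO and 293 and 151 CPM in wild type. The cycling immune-like cluster was highest for Slc7a5, Phgdh and Atf4, with Phgdh at 141 and 104 CPM in Dnmt1 CKO and 99.1 and 154 CPM in wild type. Psat1 was about as high there, at 173 and 95 CPM in Dnmt1 CKO and 183 and 119 CPM in wild type, as in alveolar type 1-like cells, at 125 and 120 CPM in Dnmt1 CKO and 190 and 133 CPM in wild type. Ddit3 was highest in pericyte-like cells, at 129 and 163 CPM in Dnmt1 CKO and 96.7 and 149 CPM in wild type. Slc3a2 was highest in macrophage-like cells, at 347 and 381 CPM in Dnmt1 CKO and 284 and 291 CPM in wild type. Smaller clusters went above some of these levels. The mast or basophil-like cluster, of 20 and 9 Dnmt1 CKO cells and 5 and 5 wild type cells, had Slc3a2 at 1848 and 1401 CPM in Dnmt1 CKO and 1636 and 1466 CPM in wild type, and Slc7a5 at 609 and 284 CPM in Dnmt1 CKO and 559 and 103 CPM in wild type. Its mean levels of Ddit3 and Atf4 also lay above those of the clusters just named, as did that of Ddit3 in the erythroid-like cluster, at 44.5 and 344 CPM in Dnmt1 CKO and 664 and 116 CPM in wild type.

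Of the other genes of the pathway, 118 were taken in 9 lists, and 115 were tested in mesenchymal-like cells (edgeR, Benjamini-Hochberg over all genes). In Dnmt1 CKO 19 rose and 5 fell, where 7.07% of all genes rose and 5.8% fell. The lists were chosen with earlier results of these data known, so these counts and the p-values below are no independent support. Without wild type replicate 2 the number that rose was 10, and without Dnmt1 CKO replicate 1 the number that fell was 1. The median log2 fold change was 0.20 over the listed genes and 0.00 over all genes.

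Other ATF4 targets went both ways, with 3 higher and 3 lower of 15 tested. Gdf15, a secreted stress cytokine, had 13.8 and 17.8 CPM in Dnmt1 CKO and 0.635 and 0.838 CPM in wild type (log2 4.22, SE 0.30, adjusted p = 5.03e-05). Atf5, a related transcription factor, rose by a log2 of 0.89 (adjusted p = 0.0171). Vldlr, a lipoprotein receptor, fell, with 97.2 and 111 CPM in Dnmt1 CKO and 288 and 321 CPM in wild type (log2 -1.57, adjusted p = 0.00119). Among serine, proline and one-carbon enzymes 2 of 10 rose. Mthfd2, the mitochondrial folate enzyme, had 32.0 and 28.0 CPM in Dnmt1 CKO and 5.89 and 4.53 CPM in wild type (log2 2.48, adjusted p = 0.000279). Of 8 other transporters Slc1a5, a glutamine transporter, fell, with 18.4 and 27.0 CPM in Dnmt1 CKO and 46.2 and 49.7 CPM in wild type (log2 -1.09, adjusted p = 0.0135). Of 20 cytosolic tRNA synthetases Cars and Rars rose (log2 1.03 and 0.80). Of 6 eIF2alpha kinase and phosphatase genes the smallest adjusted p was 0.113, for Eif2s1, which encodes eIF2alpha itself (log2 0.54).

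Among ER chaperones and targets of ATF6 or XBP1, Creld2 and Herpud1 rose and Atf6 itself fell (log2 1.31, 0.68 and -1.08), of 16 tested. Of 15 p53 targets 6 rose, led by Cdkn1a, the cell cycle inhibitor p21, with 104 and 140 CPM in Dnmt1 CKO and 36.3 and 47.7 CPM in wild type (log2 1.53, adjusted p = 0.00288). Of 10 NRF2 targets, which guard against oxidation, Me1, Gclc and Prdx1 rose (log2 1.61, 1.16 and 1.08). Of 15 immediate early and heat shock genes, which can mark dissociation, Ier3 alone rose (log2 0.73, adjusted p = 0.0302).

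**Figure D5:**
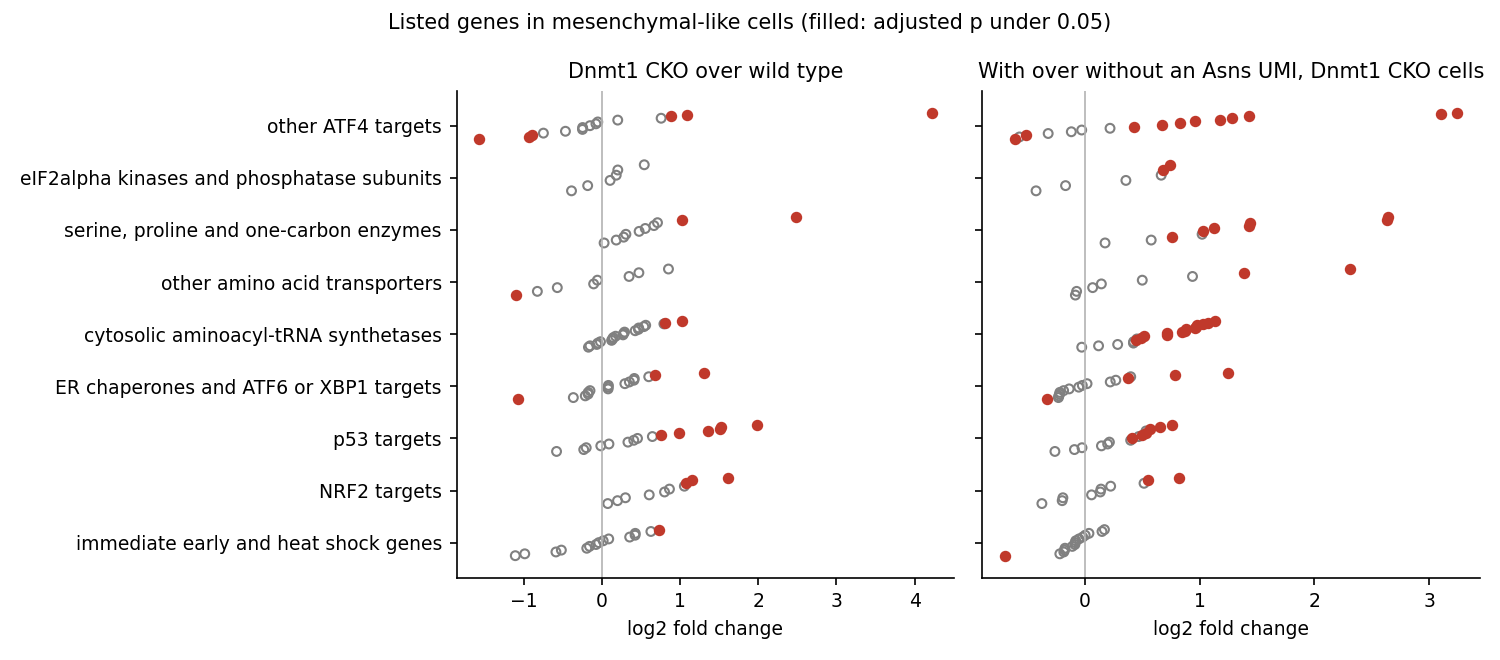
Log2 fold changes of the listed pathway genes in mesenchymal-like cells, with 1 point for each gene grouped by list, filled where the adjusted p is under 0.05: Dnmt1 CKO over wild type on the left, and cells with over cells without an Asns UMI in Dnmt1 CKO on the right. On the left Gdf15 lies at 4.22, Mthfd2 at 2.48 and Vldlr at -1.57.

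Whether the listed genes changed by different amounts in the mesenchyme and in other classes was tested as an interaction. The lists were the same, chosen with earlier results of these data known, so these counts too are no independent support. Against epithelial-like cells 10 of 116 were called higher and 2 lower, where 1.76% of all genes were called higher and 1.47% lower, and against endothelial-like cells 12 of 115 were called higher and 3 lower, where 3.26% were called higher and 2.33% lower. Mthfd2 had a larger change in mesenchymal-like cells than in epithelial-like (log2 2.08) and endothelial-like cells (log2 1.56). Without wild type replicate 2 the number called higher was 0 against epithelial-like cells and 4 against endothelial-like cells.

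In the split by Asns within the mutant mesenchyme, 45 of 116 listed genes were called higher and 4 lower, where 8.15% of all genes were called higher and 6.65% lower. The median log2 difference was 0.37 over the listed genes and -0.02 over all genes. The tRNA synthetases were called higher for 14 of 20 (median log2 0.71), the serine, proline and one-carbon enzymes for 7 of 10 (median 1.08), and the other ATF4 targets for 9 of 16, with 2 called lower (median 0.55). Of 15 p53 targets 6 were called higher (median 0.41), of 6 eIF2alpha kinase and phosphatase genes 2 (median 0.51), of 8 other transporters 2 (median 0.32) and of 10 NRF2 targets 2 (median 0.14). Gdf15 had 80.4 and 90.1 CPM in cells with an Asns UMI and 8.55 and 10.7 CPM in cells without (log2 3.1, adjusted p = 1.54e-07). Of 16 ER chaperones and targets 3 were called higher and 1 lower (median -0.04), and of 15 immediate early and heat shock genes Socs3 alone was called, lower by a log2 of -0.70. The count called higher was 28 among cells of 5000 to 10000 UMIs and 3 with no library block.

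The genes most like Asns in level were sought over 114 sums of cluster by library, from 32 clusters, among 9347 genes. The highest Pearson correlations were those of Sypl (0.49), Cpne8 (0.46), Ccnd1 (0.46), Mapk12 (0.45) and Stap2 (0.45), followed by Mrpl2, Cyb561, Coro2b, Wbp1 and Lrrc8b at 0.44 or more. Among the members Trib3 had 0.44, Slc7a5 0.25, Chac1 0.22, Phgdh 0.21 and Psat1 0.14, and Slc3a2 had -0.08. The sums share libraries and differ in depth, and many hold few Asns UMIs, so these values describe likeness only.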

How the data were processed

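The deposited values were UMI counts per gene and barcode, and the submitters' processing notes name bcl2fastq (2.20), Cell Ranger (3.1.0), the build GRCm38.p6 and Seurat. Members and lists were chosen with earlier results of these data known. Barcodes with under 500 genes or over 20% mitochondrial UMIs were left out, as were doublets called by Scrublet (expected 6%). Counts were clustered in scanpy 1.11.5 (Python 3.11.15, 2000 variable genes, 30 components, 15 neighbours, leidenalg 0.10.2 at resolution 1.0). Clusters were named "-like" from marker lists with at least 3 markers. The score of 1.5, the margin of 0.5 and the cycling score of 2.0 were set after the clusters were seen. UMIs were summed per library and class, with at least 20 cells per library, filtered with filterByExpr, scaled with TMM and tested with edgeR 4.0.16 (R 4.3.3, limma 3.58.1, prior count 2), with Benjamini-Hochberg adjustment over all genes and a threshold of 0.05. SE was taken from the fold change and the square root of F. The fits were tested on simulated data. Named genes are the 10 members, the genes of each list with the smallest p, up to 3, Dnmt1 and Dazl as checks, and the 10 genes most correlated with Asns at an average of at least 10 CPM. Further genes of a list were named after their values were seen. Alternatives were RLE and library size scaling, no filter, DESeq2 1.42.0, a replicate block, each library left out, stricter cell filters, doublets kept, other resolutions, equal cells, thinning and cycling cells left out. Replicate numbers were checked as pairs: deviations of same-numbered libraries correlated at 0.148 over only 2 pairs, so no pairing is established.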

Additional observations from a re-analysis of the deposited data

Results flagged for a closer look

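Some cells lay outside the comparisons, and there a gene stood in both Dnmt1 CKO libraries above both wild type libraries. The lower of the 2 Dnmt1 CKO values was 55.8 CPM for Slc3a2 and 33.5 CPM for Ddit3 in cells that reached no name, 10.7 CPM for Asns in erythroid-like cells, and 77.2 CPM for Slc3a2, 60.1 CPM for Ddit3 and 150 CPM for Atf4 in cardiomyocyte-like cells. These rest on few UMIs, such as 6 and 4 for Asns in Dnmt1 CKO erythroid-like cells against 0 and 1 in wild type ones, and wild type replicate 2 held only 2 cardiomyocyte-like cells with 3487 UMIs in all, so nothing is read from its 0 counts of the 3 genes named there.

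Several members lay lower in both mutant libraries of another class, opposite to the mesenchymal-like cells, and the difference between classes was not tested. Mean levels in Dnmt1 CKO were 4.91 CPM for Asns, 30.8 CPM for Slc7a11 and 0.45 CPM for Trib3 in immune-like cells, against 9.65, 72.0 and 1.49 CPM in wild type. Slc7a11 averaged 0.602 CPM in Dnmt1 CKO epithelial-like cells and 1.83 CPM in wild type ones, and 0.887 CPM in Dnmt1 CKO endothelial-like cells and 1.35 CPM in wild type ones. Chac1 averaged 0.517 CPM in Dnmt1 CKO endothelial-like cells and 1.13 CPM in wild type ones.

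For listed genes the change in mesenchymal-like cells differed from that in another class by an edgeR interaction test. The log2 difference against epithelial-like cells was 2.65 for Gdf15, 2.08 for Mthfd2, 1.63 for Me1, 1.5 for Bbc3, 1.41 for Creld2, 1.25 for Cdkn1a, 1 for Herpud1, 0.968 for Gclc, 0.925 for Prdx1, -0.765 for Atf6 and -0.979 for Slc1a5. Against endothelial-like cells it was 1.97 for Gdf15, 1.88 for Cdkn1a, 1.56 for Mthfd2, 1.36 for Bbc3, 1.31 for Creld2, 0.908 for Atf5, 0.849 for Ier3, 0.752 for Prdx1, 0.725 for Rars and -1.76 for Slc1a5. Also called was Ddit4, at 1.32 against epithelial-like and 1.06 against endothelial-like cells. So were Fas at 0.958, Ccng1 at 0.90, Cebpb at -0.66 and Fosb at -0.717, against endothelial-like cells only. With 2 libraries a group, no single library could be tested as an outlier.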

How the results depend on the processing

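Apart from a difference given with no test, none of the results recomputed under these alternatives reversed. That difference was Slc7a5 in smooth muscle-like cells, which was higher in both mutant libraries by clusters. By nearest wild type cells its groups overlapped, with the mutant mean lower. Of values that answer a comparison, 246 stayed the same and 59 moved. Listed genes called higher in mesenchymal-like cells numbered 19 (10 to 24 with each library left out) and lower 5 (1 to 9; 9 with no low-count filter). With the replicate block, which rests on numbers not shown to pair the libraries, these were 31 and 11, genes called overall 3357 against 2079 without it, and members called in mesothelial-like cells 1. Members called were 0 in immune-like and mesothelial-like cells and 1 in each with no filter, and in both classes calls depended on which library was left out. The log2 fold change of Asns ranged over 3.47 to 4.6 with each library left out. Mean Asns in Dnmt1 CKO by nearest wild type cells was 13.7 CPM in alveolar myofibroblast-like, 14.7 in matrix fibroblast-like and 7.32 in smooth muscle-like cells, against 3.07, 0.73 and 16.7 by clusters, and at resolution 0.5 it was 14.2 in matrix fibroblast-like cells. Members called higher in Dazl-positive cells numbered 1, but 2 with no filter and 0 with RLE, DESeq2, no library block, resolution 2.0, equal cells, Dazl status after thinning or within the largest subtype. Against epithelial-like cells 10 listed genes were called higher (0 to 14; 21 with no filter) and 2 lower (0 to 4; 5 with no filter, 1 with DESeq2, 0 with equal cells). Against endothelial-like cells 12 were called higher (3 to 18; 19 with no filter, 7 with DESeq2) and 3 lower (1 to 9; 9 with no filter, 8 at resolution 2.0, 7 with RLE or stricter cells, 5 with library size scaling or no cycling cells). In the split by Asns, members called numbered 9 (DESeq2 5, no library block 2) and listed genes 45 higher (DESeq2 25, no library block 3, 5000 to 10000 UMIs 28) and 4 lower (0 with no library block, 7 in cluster 1, 1 at 5000 to 10000 UMIs). The mean percent of Dnmt1 CKO mesenchymal-like cells with an Asns UMI was 2.7% (1.88% thinned to 2000, 5.59% unthinned), and the mean percent of wild type mesenchymal-like cells with an Asns UMI was 0.239% (0.587% unthinned). The cause of these shifts was not tested. With 2 libraries, neither split could be tested with a library left out. Low counts limit Slc7a11, Trib3 and Chac1 most.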
